A study of Rattus norvegicus with 49 samples.

Results

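The 9 liver genes described here respond in rats to the male pattern of growth hormone release. They were followed in livers collected after 90 days of oral furan, by 10 of the 30367 probes on the array. They were 5 cytochrome P450 genes, Cyp3a2, Cyp2c11, Cyp2c13, Cyp2a2 and Cyp4a2, and 4 genes of the lipocalins known in rats as alpha-2u-globulins, Mup4l1, Mup4l3, Mup4l4 and Obp3. Probes were assigned to them by RefSeq accession, and the genes were chosen by their log2 ratios on these same arrays, high in males and low in females, so that the difference between the sexes is described below and not tested. All 10 probes passed the filter on dim signal, as did 17128 probes in all. Mup4l4 had 2 probes, and the brighter one stands for the gene unless the other is named. The question was whether furan lowered these genes, in male and in female rats.

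Male and female rats of the inbred F344 strain, 7 to 8 weeks old at the start, received furan in corn oil by gavage on 5 days of each week at one of 4 doses, of which 2 mg/kg bw/day was the highest and 0.5, 0.12 and 0.03 the others, and controls (0 mg/kg) received the oil alone. Whole liver RNA, labelled with Cy5, was hybridized against a universal rat reference RNA, labelled with Cy3, so that each value is a log2 ratio of liver over reference. Each sex and dose was represented by 5 rats, 1 array per rat, except for 4 males at 0.03 mg/kg, 1 of which was left out because only 5.06% of its liver spots were well above background. On the other 48 arrays this share was 37.9% to 71.1%, and the arrays came from 8 slides, 2 of which (slides 5 and 6) held no control. The share had a median of 65.1% in control males and 56.1% in males at 2 mg/kg, and of 64.8% and 51.8% in the corresponding females. Slide was kept as a term in every comparison unless stated. Probes for hepatocyte markers were bright on all arrays, with a mean log2 ratio over 5 markers between 5.69 and 7.74 in the control and 2 mg/kg groups.

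In rats the pituitary of males releases growth hormone in widely spaced pulses, whereas that of females releases it nearly continuously. In hepatocytes a pulse acts through the growth hormone receptor and the kinase JAK2 on the transcription factor STAT5b, which then leaves the nucleus before the next pulse. Cyp2c11, Cyp2c13, Cyp2a2, Cyp4a2, Cyp3a2 and the alpha-2u-globulins are high under the male pattern, and Cyp3a2 is among those known for being shut off by the female pattern. The P450 enzymes oxidize steroids, drugs and, for Cyp4a2, fatty acids, while the alpha-2u-globulins are small carrier proteins that male rats pass into urine. Hormone levels were not measured here.

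Promoters of 8 of the 9 genes were matched by symbol in the RefSeq set of the GRCr8 build, each with 250 bases before and 50 after the annotated start, and Cyp2a2 had no entry. They were searched on both strands for TTCNNNGAA, the core that STAT5 proteins bind, and for ATTGAT, a core bound by HNF6 (Onecut1), a liver factor of sex-biased genes. No match of one motif overlapped a match of the other. Of 33469 rat promoters of this length, 8.87% held TTCNNNGAA and 8.06% held ATTGAT. The 4 sequences below were chosen as those of the male P450 gene and the female lipocalin gene with the clearest change, of the lipocalin gene with both motifs and of the P450 gene with ATTGAT. Capitals mark matches on either strand.
Cyp3a2, chr12:14343808-14344107, minus strand: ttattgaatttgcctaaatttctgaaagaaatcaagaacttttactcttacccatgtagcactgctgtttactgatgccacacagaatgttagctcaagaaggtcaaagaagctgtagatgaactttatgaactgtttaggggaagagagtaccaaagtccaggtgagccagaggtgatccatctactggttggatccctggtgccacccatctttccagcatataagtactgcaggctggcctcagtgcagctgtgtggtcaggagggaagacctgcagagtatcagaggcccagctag
Obp3, chr5:79640626-79640925, minus strand: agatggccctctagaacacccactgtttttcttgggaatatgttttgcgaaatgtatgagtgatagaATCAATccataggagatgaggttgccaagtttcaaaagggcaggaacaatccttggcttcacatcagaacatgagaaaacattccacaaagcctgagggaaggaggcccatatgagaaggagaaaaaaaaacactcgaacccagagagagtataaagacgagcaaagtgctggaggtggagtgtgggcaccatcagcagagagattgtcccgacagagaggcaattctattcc
Mup4l1, chr5:80226485-80226784, minus strand: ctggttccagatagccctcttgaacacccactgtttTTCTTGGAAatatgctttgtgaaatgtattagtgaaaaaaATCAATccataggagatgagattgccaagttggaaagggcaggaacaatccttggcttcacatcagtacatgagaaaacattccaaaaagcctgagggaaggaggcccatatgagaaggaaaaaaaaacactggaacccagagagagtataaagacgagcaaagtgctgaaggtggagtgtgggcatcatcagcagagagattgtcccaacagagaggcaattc
Cyp2c13, chr1:248787139-248787438, minus strand: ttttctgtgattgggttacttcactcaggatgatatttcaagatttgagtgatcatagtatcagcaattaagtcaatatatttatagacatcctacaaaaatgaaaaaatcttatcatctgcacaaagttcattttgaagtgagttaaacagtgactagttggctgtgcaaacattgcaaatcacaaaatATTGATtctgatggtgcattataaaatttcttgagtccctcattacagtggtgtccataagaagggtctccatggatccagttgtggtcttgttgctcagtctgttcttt
TTCNNNGAA was found in 1 of the 8 promoters, that of Mup4l1, 214 bases before the start. ATTGAT was found in 5, in Cyp2c13 at 60 bases before the start and in all 4 lipocalin genes on the opposite strand, between 174 and 208 bases before it. The 4 lipocalin promoters were 90.3% to 94.2% identical over their aligned bases and are copies of one another, so their shared match counts as 1 observation. Counted from 1 at its first base, the Mup4l1 match to TTCNNNGAA differed from the aligned bases of Obp3 and Mup4l3 by A8G and from those of Mup4l4 by T1G and A8G. Neither motif was found in Cyp3a2, Cyp2c11 or Cyp4a2, which says only that these letters are not in this window.

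Before any furan effect, the levels separated the sexes by wide margins for most members. In control males the mean log2 ratio was 10.90 ± 1.20 (SD, n = 5) for Mup4l1 against 2.50 ± 1.57 in control females. For Cyp3a2 the same means were 9.92 in males and 0.57 in females, and only 2 of the 5 control females were well above background. The smallest gaps were those of Cyp2a2, 6.29 against 4.75, and of Obp3, 4.53 against 2.89, whose control groups overlapped, from 2.95 up in males and up to 3.69 in females. On all 23 male arrays together, no member other than Cyp2a2 and Obp3 fell to the highest female value.

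A few female arrays stood apart. Female 49 at 0.12 mg/kg had the highest female value of every member but Cyp2a2, with 6.15 for Mup4l4 and 3.11 for Cyp4a2, against at most 4.78 and 1.62 on any other female array. Its Cyp2c12, the P450 of the female pattern, was at 10.03, inside the range of 8.64 to 10.57 of all females. Female 23 at 0.03 mg/kg and control females 2 and 7 were also high for the lipocalins, with Mup4l1 at 4.10, 4.02 and 3.95, whereas control female 9 was at 0.31. Results that changed without one of these arrays are named below, some of them only by the count of members called.

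**Figure D1:**
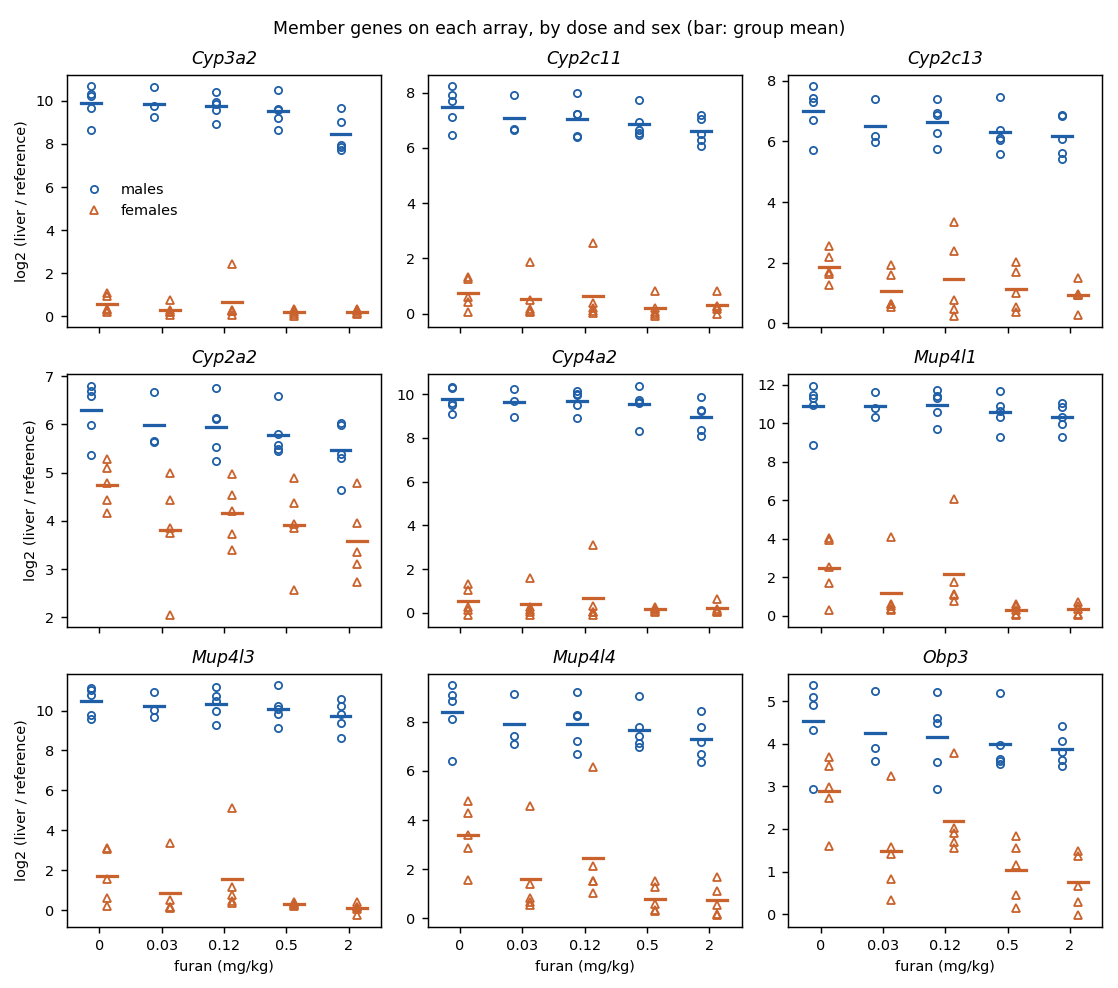
Log2 ratio of liver over reference (vertical axis) of the 9 genes on each of the 48 arrays, by furan dose (horizontal axis, categories not to scale); blue circles are males, orange triangles are females and bars are group means. In males the 2 mg/kg groups sit lowest or near lowest while overlapping the controls, and female 49 at 0.12 mg/kg stands above the other females of its dose.

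In male rats at 2 mg/kg, Cyp3a2, a steroid and drug hydroxylase, was the member that fell. Its log2 ratio was 8.64, 9.69, 10.23, 10.34 and 10.69 in the controls and 7.70, 7.87, 7.94, 9.04 and 9.69 at 2 mg/kg, so that 3 of the 5 treated rats lay below all controls and the other two lay within their range. With slide in the model the change was -1.28 ± 0.32 (SE), a 2.43-fold lower level (95% interval of the log2 change -1.94 to -0.62, limma with Benjamini-Hochberg adjustment, adjusted p = 0.0035). It was the only member of 9 called lower, that is, with an adjusted p of at most 0.05 and a change of at least 1.5-fold, where 2.49% of all tested probes were called lower. The call was lost when the dim array was kept (-1.31, adjusted p = 0.289), with the log ratio of the scanner software (-0.69, adjusted p = 0.5684) and with the series matrix of the authors (-1.06, adjusted p = 0.0995), always in the same direction. It held under each of the 10 omissions of 1 control or 2 mg/kg male (-1.49 to -1.0) and with the share of spots above background in the model (-1.27, adjusted p = 0.00459).

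The 4 other P450 genes had smaller negative changes. Cyp2a2, a steroid hydroxylase, was between 5.37 and 6.80 in controls, with a median of 6.59, and between 4.63 and 6.03 at 2 mg/kg, with 2 treated rats below all controls. Its change of -0.51 ± 0.19 (SE) had an adjusted p = 0.0462 and was smaller than 1.5-fold. Cyp2c11, the best known P450 of the male pattern, was at 6.47, 7.13, 7.68, 7.90 and 8.24 in controls and at 6.06, 6.30, 6.51, 7.03 and 7.20 at 2 mg/kg, and its change was -0.57 ± 0.28 (adjusted p = 0.140). The groups overlapped, and the same held for Cyp4a2, an omega-hydroxylase of fatty acids (-0.58 ± 0.35, adjusted p = 0.245), and for Cyp2c13 (-0.39 ± 0.26, adjusted p = 0.292).

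The lipocalin genes did not pass by their brightest probes. Mup4l4 changed by -0.63 ± 0.60 (adjusted p = 0.484), Mup4l3 by -0.37 ± 0.56, Obp3 by -0.32 ± 0.37 and Mup4l1 by -0.23 ± 0.64. Leaving out 1 array at a time moved Mup4l1 between -0.55 (without control 6) and -0.0139 (without control 3), Obp3 between -0.51 (without control 6) and -0.17 (without male 86 at 2 mg/kg), Mup4l3 between -0.60 (without control 4) and -0.20 (without male 87), and Mup4l4 between -0.89 (without control 6) and -0.41 (without control 3). For Mup4l1 the sign turned to 0.30 when the liver channel was used alone. The dimmer probe of Mup4l4 was called, at -0.99 ± 0.29 (SE, adjusted p = 0.0106), with 3 of 5 treated males below all controls. The 2 probes of this gene therefore had the same direction and different calls. They also differed in how well they told the sexes apart, with control means of 8.99 in males and 0.40 in females for the dimmer and 8.38 and 3.38 for the brighter. Near-identical copies of this family can share a probe, so a value here need not come from 1 gene alone.

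As a group, all 9 members were below 0 in males at 2 mg/kg, as were 53.65% of all probes. Of the 9, 3 had an unadjusted limma p under 0.05, as did 35.74% of all probes. The median change of the members was -0.51, where the median of all probes was -0.02. No member had all 5 treated rats below all 5 controls, as 1.64% of all probes did. The members were chosen on these arrays for being high in males, so these counts are not independent of the choice. The members also varied together among the males, as described below, so they are not 9 separate observations. Males at 2 mg/kg were also compared with the 3 lower doses, so that controls were not one of the groups compared, although the control arrays still entered the slide terms and the spread. Cyp3a2 was again called lower, by -1.26 ± 0.27 (adjusted p = 0.000706), as 1.16% of all probes were. The other 8 members were also negative, as were 52.87% of all probes, and the median of the members was -0.47. Without male 68 at 0.5 mg/kg, or without female 49 at 0.12 mg/kg, 2 members were called in that comparison.

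**Figure D2:**
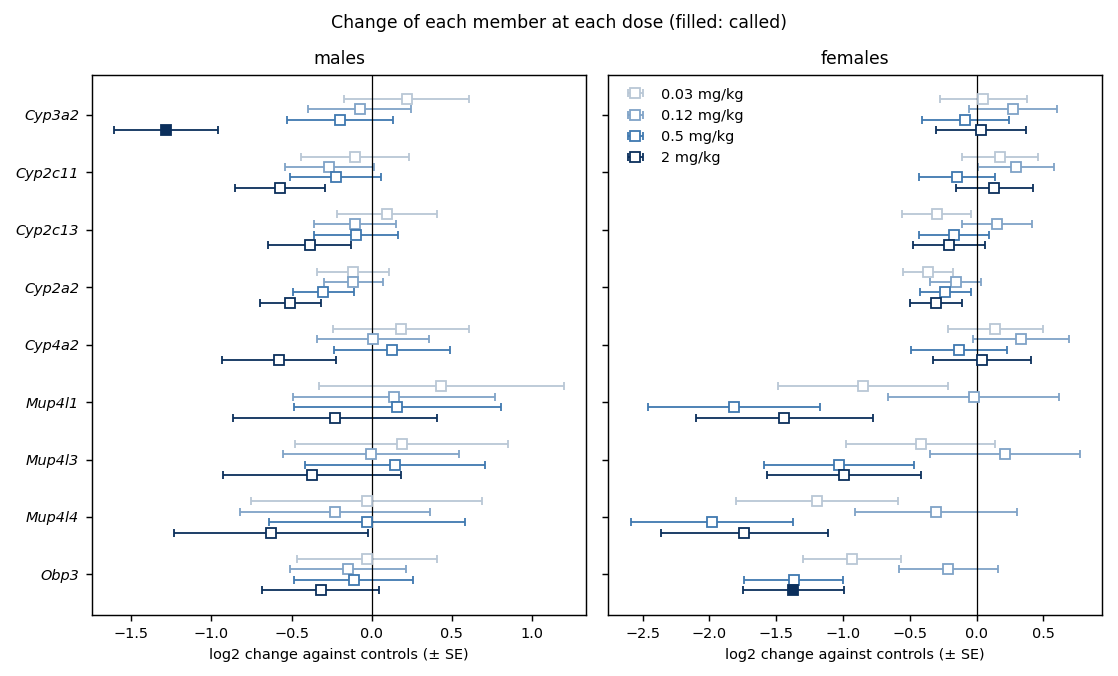
Log2 change of each member against the controls of its sex, at 4 doses, from the model with slide (horizontal axis; error bars are SE, filled squares were called, males left, females right). Cyp3a2 at 2 mg/kg in males, at -1.28, and Obp3 at 2 mg/kg in females, at -1.37, are the filled squares.

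The model above estimates 1 spread for both sexes, and the SE of Mup4l4 in males at 2 mg/kg was 0.60 in it. When the males were fitted alone, a choice made after the values were seen, the changes at 2 mg/kg were similar and the errors smaller. Cyp2c11 changed by -0.55 ± 0.12 (adjusted p = 0.00524), Cyp2a2 by -0.56 ± 0.11 (adjusted p = 0.00307), Mup4l4 by -0.57 ± 0.15 (adjusted p = 0.0159) and Cyp2c13 by -0.45 ± 0.13 (adjusted p = 0.0306). All 4 were below the 1.5-fold limit, so that Cyp3a2, at -1.18 ± 0.26 (adjusted p = 0.00663), was still the only member called by its brightest probe, where 2.34% of all probes were called lower. The adjusted p of the other 4 was above 0.05 there too, at 0.0584 for Cyp4a2, 0.155 for Mup4l3, 0.372 for Obp3 and 0.647 for Mup4l1.

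Each of the 5 males at 2 mg/kg shared its slide with 2 or 3 other males. Against their mean, 6 of the 9 members, the 5 P450 genes and Mup4l3, were lower on all 5 slides, where 14.7% of all probes were. The differences of Cyp3a2 ran from -2.52 to -0.50, with the largest difference in male 84 on slide 4. Male 81 on slide 5 had the smallest differences, with a median over the members of -0.12, and male 84 the largest, with a median of -0.85. Mup4l4 was lower on 4 slides, Mup4l1 on 3 and Obp3 on 2. On the 3 slides that also held a control male, 9, 9 and 7 of the 9 members were lower at 2 mg/kg than in that control, with median differences of -0.65, -0.995 and -0.40 on slides 2, 4 and 8. The medians over all probes were -0.04, -0.05 and 0.03. Each is 1 array against 1 array, and the members are not separate observations.

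**Figure D3:**
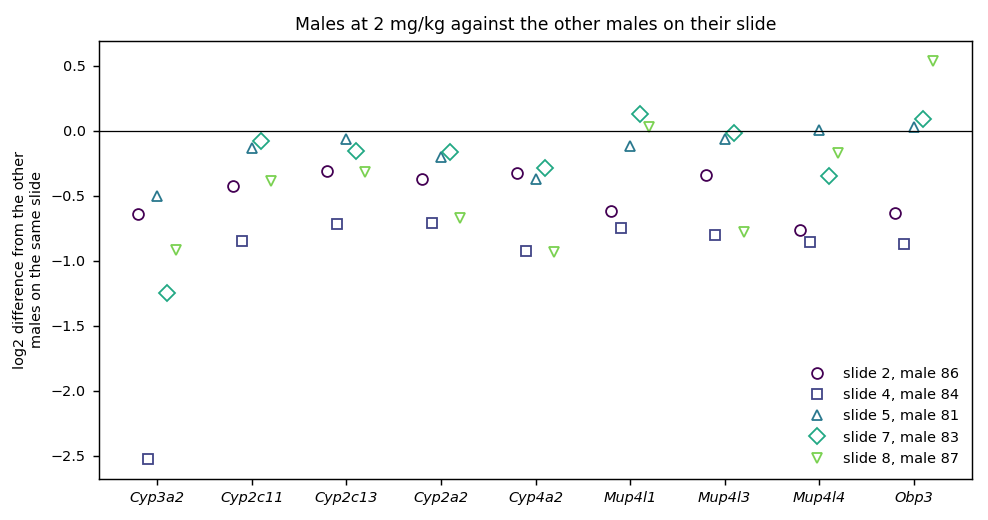
Each male at 2 mg/kg minus the mean of the other males on its slide (vertical axis, log2), for the 9 members (horizontal axis); symbols are the 5 slides. All 5 symbols of the P450 genes lie below 0, with male 84 lowest for Cyp3a2 at -2.52, while those of Obp3 lie on both sides.

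At the lower doses no member was called in males. Of all probes, 0.00%, 0.111% and 0.175% were called lower at 0.03, 0.12 and 0.5 mg/kg in turn. No member had an unadjusted limma p under 0.05 at these doses, where 4.13%, 6.56% and 11.3% of all probes did. In the fit of males alone 3 members did at 0.5 mg/kg, all lower, where 5.80% of all probes were lower at that threshold. They were Cyp2a2 (-0.28 ± 0.11, adjusted p = 0.424), Cyp2c11 (-0.29 ± 0.12, adjusted p = 0.442) and Cyp2c13 (-0.31 ± 0.14, adjusted p = 0.494). Cyp3a2 changed by 0.22 ± 0.39, -0.08 ± 0.32 and -0.20 ± 0.33 (SE) from the lowest dose up, and then by -1.28 at 2 mg/kg. The group medians over the members were 0.10, -0.11 and -0.10, with no order among them beyond the errors. A linear trend over the 5 dose levels, taken as equal steps, was called for Cyp3a2 (-0.30 ± 0.07 per step, adjusted p = 0.00301) and Cyp2a2 (-0.12 ± 0.04, adjusted p = 0.0370). These are 2 of 9 members, against 12.0% of all probes with a called downward trend. In the fit of males alone 6 of 9 had a called trend, the 5 P450 genes and Mup4l4, against 9.41% of all probes.

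The members varied together among the 23 males. After the slide term was subtracted, the 36 pairs of members had a median Pearson r of 0.70 (0.10 to 0.89), which was 0.66 over the 10 P450 pairs and 0.84 over the 6 lipocalin pairs. These correlations share arrays and normalization and are a description only. Of all other named probes, those most like the mean of the members were both probes of Mup5 (r = 0.93 and 0.92), another alpha-2u-globulin gene, Stac3 (0.91), Mup4 (0.90) and Acnat2 (0.87). Their changes in males at 2 mg/kg were -0.72, -0.58, -0.72, -0.76 and -0.72, and none was called.

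In female rats at 2 mg/kg, 3 of the 9 members had an unadjusted limma p under 0.05, as did 24.25% of all probes. Obp3 was the only member called lower, where 0.858% of all probes were. Its log2 ratio was 1.60, 2.72, 2.99, 3.47 and 3.69 in the controls and -0.02, 0.29, 0.67, 1.37 and 1.49 at 2 mg/kg. Without the slide term, all 5 treated females were below all 5 controls, as for 2.75% of all probes. Only slides 2 and 7 held both a control and a treated female. Against the females of other doses on its slide, Obp3 was lower in 4 of the 5 treated females and higher in female 82 (0.88). With slide in the model the change of Obp3 was -1.37 ± 0.38 (SE, adjusted p = 0.0276), a 2.59-fold lower level. Only 3 of the 5 treated females were well above background, so the size depends on values near the floor. The share of liver spots above background was lower at 2 mg/kg, and with that share in the model the change was -1.37 (adjusted p = 0.0294). The call was lost under 6 of 10 omissions of 1 array, those of controls 2, 4 and 7 and of females 83, 85 and 90 at 2 mg/kg, with changes between -1.71 and -1.21 over all 10. It was also lost with the dim male array kept (adjusted p = 0.0616), with the liver channel alone (adjusted p = 0.129) and under median centring (-0.65, adjusted p = 0.460).

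The other lipocalin genes in females had negative changes of similar size that did not pass. Against the females of other doses on the same slide, Mup4l4 and Mup4l1 were lower in 4 of the 5 treated females. Female 82 was higher for both (1.19 and 0.48). Mup4l3 was the 1 member of 9 that was lower in all 5, where 7.59% of all probes were. Mup4l4 was between 1.55 and 4.78 in controls and between 0.13 and 1.69 at 2 mg/kg, with a change of -1.74 ± 0.62 (adjusted p = 0.0823), and it was called without female 49 (-1.73, adjusted p = 0.0390). Its dimmer probe was well above background on 1 control female and on no treated female. Mup4l1 and Mup4l3 were well above background on 4 of 5 control females and on none at 2 mg/kg. In the liver channel, scaled between arrays by quantiles of the average signal, they were at least 3.02-fold and 1.95-fold lower there by group means without the slide term, and their changes in the model had adjusted p = 0.173 and adjusted p = 0.290. At 0.5 mg/kg Obp3 changed by -1.37 ± 0.37 (adjusted p = 0.0784) and Mup4l4 by -1.98 ± 0.61 (adjusted p = 0.111). Without the slide term, all 5 females at that dose were below all controls for Mup4l4, as for 2.53% of all probes. No member was called in females at 0.03, 0.12 or 0.5 mg/kg, where 0.00584%, 0.00584% and 0.0292% of all probes were called lower, and 1, 0 and 3 members had an unadjusted limma p under 0.05, as did 6.48%, 8.42% and 15.1% of all probes. The downward trend was called for Obp3 (-0.32 ± 0.08 per step, adjusted p = 0.0130) and Mup4l4 (-0.43 ± 0.14, adjusted p = 0.0382), against 6.90% of all probes. At 2 mg/kg against the 3 lower doses, where 0.0817% of all probes were called lower, no female member was called (Obp3 -0.53 ± 0.30, adjusted p = 0.340), and none had an unadjusted limma p under 0.05, as 19.1% of all probes did.

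Of the 5 P450 members, Cyp3a2, Cyp4a2 and Cyp2c11 were at or near background in most females. They were well above background on 4, 5 and 7 of the 25 female arrays, and their modelled changes at 2 mg/kg were 0.03, 0.04 and 0.13. The signs of these 3 changed with the processing, and such values near background cannot show a fall. Cyp2a2, well above background on all 25, changed by -0.31 ± 0.20 (adjusted p = 0.344), and Cyp2c13, well above background on 18, by -0.21 ± 0.27.

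The effect of 2 mg/kg was not called as different between the sexes for any of the 9 members, where 1.14% of all probes were, and 2 members had an unadjusted limma p under 0.05, as did 19.1% of all probes. The difference of males minus females was -1.31 ± 0.45 for Cyp3a2 (adjusted p = 0.101) and 1.05 ± 0.51 for Obp3 (adjusted p = 0.248). Cyp3a2, Cyp4a2 and Cyp2c11 were at or near background in most females, where a fall cannot be seen. For these genes the comparison therefore cannot tell whether the response differed between the sexes. Without male 86 at 2 mg/kg, or with the liver channel alone, 1 member was called. The sex difference itself remained at the top dose. At 2 mg/kg the log2 ratio of Cyp3a2 was at least 7.70 in every male and at most 0.31 in every female, none of which was well above background.

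Genes of growth hormone action were read from a list of 18, of which 17 were measured. In males at 2 mg/kg 4 fell, 1 rose and 12 were not called, with a median change of -0.25. Counts in this and the following lists stand against 427 of 17128 probes called lower and 467 called higher in these males. In females at 2 mg/kg 147 probes were called lower and 102 higher. The 4 that fell were Igfbp1, an IGF-binding protein (-1.09 ± 0.29, adjusted p = 0.00572), Igfals, which stabilizes IGF1 in blood and is made in liver under growth hormone (-0.83 ± 0.11, adjusted p = 2.06e-06), Ghr, the receptor itself (-0.74 ± 0.15, adjusted p = 0.000442), and Igf1, the main hormone the liver makes in response (-0.68 ± 0.13, adjusted p = 0.000207). Igfbp2 rose by 0.81 ± 0.29 (adjusted p = 0.0380). Igf1 was outside the naming rule and was chosen after its value was seen. In females at 2 mg/kg only Igfbp1 was called (-1.25 ± 0.30, adjusted p = 0.0136), of the same 17 genes, and Stat5b, Jak2 and Socs2 were not called in either sex.

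Liver transcription factors of sex-biased genes moved in both directions in males. Of 14 measured, Bcl6, a repressor of STAT5 targets that is higher in male liver, rose by 1.34 ± 0.48 (adjusted p = 0.0363) and Ppara, the receptor for fatty acids, by 0.89 ± 0.18 (adjusted p = 0.000380). Among those that fell was Foxa3, a forkhead factor of hepatocytes, by 0.63 on the log2 scale (SE 0.21, adjusted p = 0.0279). None of the 14 was called in females.

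Other genes listed as male-predominant mostly lay below 0 in males at 2 mg/kg. Of 13 measured, 6 fell, where 2.49% of all probes were called lower, 0 rose and 12 were below 0, with a median of -0.65. Examples were Sult1c3, a sulfotransferase (-1.03 ± 0.17, adjusted p = 3.6e-05), Cyp7b1, an oxysterol hydroxylase (-0.96 ± 0.33, adjusted p = 0.0306), Cyp3a18, a relative of Cyp3a2 (-0.69 ± 0.26, adjusted p = 0.0493), and Slco1a1, an uptake transporter (-0.68 ± 0.15, adjusted p = 0.00119). The other two that fell, Cyp2d1 and Cyp2c7, had control means of 6.54 and 6.44 in males and of 6.37 and 6.45 in females, and Slco1a1 had 5.72 and 5.36, so that these 3 showed little of the sex difference their list is named for. The same held for Cyp2c22 (4.8 in males and 4.9 in females), Cyp4a3 (9.3 and 9.6) and Hsd17b2 (5.1 and 4.9), which were not called. Hsd3b5, at 8.41 in control males and 0.50 in control females, changed by -0.80 ± 0.33 (adjusted p = 0.0723). It was not called, and neither were Mup4 and Mup5. The counts and median of this list include all of these genes. Of 17128 probes, 467 were called higher and 427 lower in males. Of 12 measured genes listed as female-predominant, 3 rose and 2 fell in males, with a median of 0.04. Among them Cyp17a1 had control means of 3.67 in males and 3.09 in females. Those of Hsd17b6, which fell, were 7.35 and 7.83, and those of Cyp2a1 were 6.06 and 6.43. These 3 showed little or no female excess. Cyp2c12, the P450 of the female pattern, rose by 2.04 ± 0.30 (adjusted p = 1.09e-05), from a range of 1.78 to 3.93 in control males to 3.27 to 5.71, still far below the females. Prlr, the prolactin receptor, rose by 1.0 ± 0.24 (adjusted p = 0.00257), and Sult2a6, a steroid sulfotransferase, changed by -0.87 ± 0.18 (adjusted p = 0.000438). Akr1b7 was called higher, but was well above background on 0 of 5 control males and 2 of 5 treated ones, so no size is given. No gene of these 2 lists was called in females.

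Genes that mark the hepatocyte itself were also lower in males at 2 mg/kg. Of 15, all lay below 0 with a median of -0.41, 2 fell (Tat, a tyrosine-degrading enzyme, by 1.04 on the log2 scale, and Asgr1, a glycoprotein receptor, by 0.62) and 9 had a called downward trend. Among 15 PPAR alpha targets Cyp4a1 (-0.75 ± 0.16) and Angptl4 (-0.61 ± 0.18) fell, with a median of -0.31, and among 14 acute phase genes only A2m was called at 2 mg/kg, higher by 1.60 ± 0.32, with a median of -0.42. In each of these 2 lists 13 genes lay below 0. A downward trend was called for 7 of the PPAR alpha targets and 11 of the acute phase genes, and an upward trend for 1 gene in each list. Over all probes, 12.0% had a called downward trend, and 2243 of 17128 had a called upward trend. At 2 mg/kg 2.49% of all probes were called lower in males. In females at 2 mg/kg the hepatocyte list had a median of -0.04 and none of its genes was called, while Angptl4 (-0.62 ± 0.19, adjusted p = 0.0449) and A2m (1.42 ± 0.33, adjusted p = 0.0103) were called as in males.

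Markers of other cells moved as well. Of 5 measured cholangiocyte markers (of 7 listed), Epcam, Krt19 and Spp1 rose in males at 2 mg/kg, where 467 of 17128 probes were called higher. The mean over the 5 was between -1.84 and -1.39 in control males and between -1.58 and -0.47 at 2 mg/kg. The mean over the 5 hepatocyte markers was between 6.16 and 7.74 in control males and between 5.69 and 7.13 at 2 mg/kg. Of 7 stellate cell markers, Col3a1 and Lrat rose, of 3 red cell markers Hbb and Slc4a1 fell, and of 6 macrophage, 3 neutrophil, 2 T cell and 3 endothelial markers none was called, while no B cell marker was measured. In whole liver, fewer hepatocytes and less RNA per hepatocyte cannot be told apart. In females at 2 mg/kg Epcam rose (0.60 ± 0.16, adjusted p = 0.0255), and Krt19 changed by 0.66 ± 0.24 (adjusted p = 0.0838). Apart from Epcam, no marker of these cell types was called in females. The mean over the 5 cholangiocyte markers was between -1.82 and -1.51 in control females and between -1.46 and -1.01 at 2 mg/kg, with no overlap. Of single probes, 1.26% had all 5 treated females above all 5 controls. The marker means in this paragraph were taken without the slide term, and the groups lay on partly different slides. The median of the cholangiocyte mean was also higher in females at 0.03, 0.12 and 0.5 mg/kg (-1.48, -1.48 and -1.42) than in control females (-1.77). The mean over the 5 hepatocyte markers in females was between 6.66 and 7.40 in controls and between 5.96 and 7.27 at 2 mg/kg. The part of these shifts in the members' changes was not tested.

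**Figure D4:**
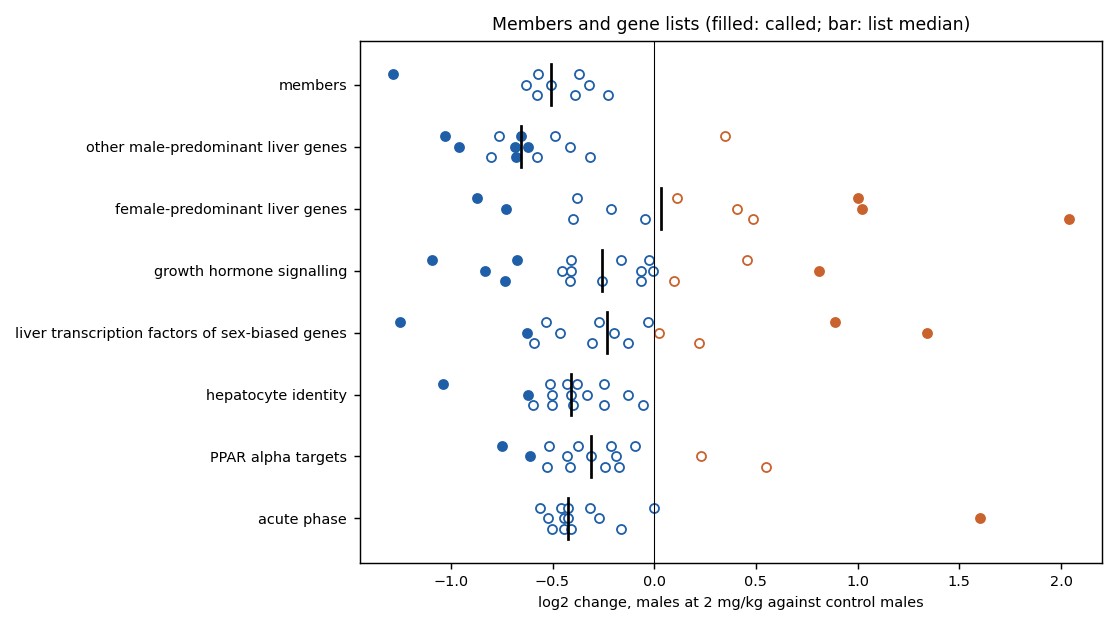
Log2 change in males at 2 mg/kg against control males (horizontal axis) of each measured gene of 8 groups (rows); filled points were called, open points were not, and black bars are medians. The members, the other male-predominant genes and the hepatocyte genes have medians of -0.51, -0.65 and -0.41, and Cyp2c12 is the point farthest to the right at 2.04.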

How the data were processed

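Per the labels, liver RNA (Cy5) and a universal rat reference RNA (Cy3) were hybridized to 2-colour Agilent arrays without dye swaps. The deposited scanner files, made with Agilent Feature Extraction 10.7.3.1, hold median spot and background intensity, quality flags and a log10 ratio of liver over reference that the software background-subtracted and dye-normalized. The deposited series matrix holds log2 ratios that the authors normalized in R; 0 columns were left unused. Of its 49 columns, 42 matched another array of their group better than their own, and all 46 clear matches lay in the labelled group, so animal numbers here follow the scanner files.

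Intensities were corrected with normexp (offset 50) and loess in limma 3.58.1 (R 4.3.3), and spots of a probe were averaged without outlier flags. Probes were kept when the liver signal was well above background on 4 arrays of a group (3 in the group of 3 males). A limma model with 10 group means and slide gave moderated tests, adjusted by Benjamini-Hochberg over 17128 probes (adjusted p, 2-sided). Calls needed adjusted p of at most 0.05 and 1.5-fold, trends adjusted p alone. No array weights were used, and the number of arrays limits the precision. Probes were named through RefSeq for GRCr8, used for names and promoters; the array design was annotated on rn4.

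Members and gene lists were chosen with earlier results of these data known. All 9 members were named, and up to 4 genes of each list by the largest called change in males at 2 mg/kg. Some other listed genes were named after their values were seen. A result of the transcription factor list is not reported here. Alternatives covered the slide term, the dim array, other ratios, centring, filter, weights, probe averaging and the omission of each array. Rats were separate animals. Steps were tested on simulated data.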

Additional observations from a re-analysis of the deposited data

Results flagged for a closer look

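Within each of the 9 groups of 5 rats, the highest and lowest array of each member was tested by Dixon's ratio, the gap to the nearest array over the range of the group. Of 81 tests, 14 passed the critical value of 0.71, in 4 animals. Chance alone passes about 1 in 20 groups, and values of 1 array are not independent of each other.

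Female 49 at 0.12 mg/kg was the highest of its group with ratios of 0.8509 for Cyp2c11, 0.8949 for Cyp3a2, 0.8694 for Cyp4a2, 0.8165 for Mup4l1, 0.8349 for Mup4l3, 0.7831 for Mup4l4 and 0.7883 for Obp3. Female 23 at 0.03 mg/kg was the highest of its group for Cyp2c11 (0.7532), Cyp4a2 (0.7792), Mup4l1 (0.9217), Mup4l3 (0.8868) and Mup4l4 (0.7862). Female 90 at 2 mg/kg stood apart for Cyp4a2 (0.73), and male 70 at 0.5 mg/kg for Obp3 (0.7267). Why these arrays stood apart was not tested.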

How the results depend on the processing

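Counts below are members called of 9. In males at 2 mg/kg (1), 0 were called with all 49 arrays, with or without the slide term, with the scanner's log ratio and with the series matrix, and 3 with the liver channel alone. In females at 2 mg/kg (1), 2 were called without the slide term, with slide as a random block, with the series matrix, with array weights and without female 49, 0 with all 49 arrays, median centring or the liver channel, and 4 with the scanner's log ratio. Over the lower doses in females (0), 1 was called with the random block and 3 with array weights. For the trend in males (2), 1 was called without the slide term, with the random block, the scanner's log ratio, median centring, no filter or array weights, 0 with all 49 arrays (with or without slide) or the series matrix, and 6 in males alone. For the trend in females (2), 1 was called with all 49 arrays, the liver channel, no filter, the mean of a gene's probes or females alone, 4 with the scanner's log ratio and 0 with median centring. The interaction (0) gave 1 with the liver channel. Males at 2 mg/kg against lower doses (1) gave 0 with all 49 arrays (with or without slide), the scanner's log ratio, median centring or the series matrix, 4 with the liver channel, and 2 in males alone or without female 49. The cause was not tested.

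Leaving out 1 array at a time gave 0 to 2 in females at 2 mg/kg, 1 to 2 for the trend in males, 1 to 3 for the trend in females, 0 to 1 for the interaction and 1 to 2 for males against lower doses. The trend in males fell to 1 without control 5 or 6, male 22, 25 or 27 at 0.03 mg/kg, male 65 at 0.5 mg/kg, or male 84 or 86 at 2 mg/kg, and that in females to 1 without control 2, 4 or 7, female 70 or 72 at 0.5 mg/kg, or female 83, 85, 90 or 92 at 2 mg/kg. Females at 2 mg/kg gave 2 without control 9 or female 82. The members' median in males ranged from -0.82 (no slide term) to -0.37 (liver channel), and in females from -1.47 (series matrix) to -0.04 (median centring), with no change of sign.

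Signs turned for Mup4l1 in males with the liver channel (0.30) and, in females at 2 mg/kg, for Cyp2c13 with median centring (0.52). Cyp2c11 in females turned to -0.43 without the slide term (with 48 or 49 arrays), -0.13 with the scanner's log ratio, -0.41 with the series matrix and -0.19 in females alone. Cyp3a2 in females turned to -0.35, -0.71, -0.43 and -0.22 in those settings, -0.0164 with the random block and -0.0331 with the liver channel, and Cyp4a2 to -0.33, -0.47, -0.36 and -0.16, -0.22 with the liver channel and -0.0003 with the share of spots above background. Leaving out 1 array at a time, these changes in females ranged from -0.0652 to 0.3156 for Cyp2c11, from -0.2003 to 0.2891 for Cyp3a2 and from -0.2247 to 0.1947 for Cyp4a2. Near-background signal limits these.

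Fits of 1 sex, without female 49, with the share of spots, and with the series matrix were chosen after seeing the data. The planned series matrix with slide was not run, since columns could not be tied to slides. No paired analysis was possible because dosed and control rats share no numbers, and equal numbers in males and females are different animals.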
